A study of Mus musculus and Homo sapiens with 65 samples.

Results

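The 69 genes described here are the clustered, replication-dependent histone genes of the mouse, chosen by name from the 32287 genes of each expression table: every symbol that starts with Hist1h, Hist2h, Hist3h or Hist4h, leaving out 1 pseudogene row. By the histone in the name they are 6 H1, 20 H2A, 18 H2B, 12 H3 and 13 H4 genes. On mm10, 56 lie on chromosome 13 (Hist1), 10 on chromosome 3 (Hist2), 2 on chromosome 11 (Hist3) and 1 on chromosome 6 (Hist4). The study profiled histone marks and DNA methylation in mouse oocytes and early embryos and, by RNA sequencing, embryos depleted of the histone H3 lysine 4 demethylases KDM5A and KDM5B. Of its 65 samples, 9 RNA-seq libraries of late 2-cell embryos with gene-level tables were used. There were 3 wild-type libraries and 2 of embryos treated with alpha-amanitin, an inhibitor of RNA polymerase II of unstated dose and timing in the labels. The other groups came from zygotes injected at 0.5 days post coitum with fluorescein-tagged morpholinos (antisense oligonucleotides). In 2 libraries the morpholinos were directed against Kdm5a and Kdm5b, and in 2 they were control versions that each carried 5 mismatched bases. Culture of all embryos ended at the late 2-cell stage. The labels do not say whether libraries of a group came from separate collections of embryos, so p-values reflect only library-to-library spread, which may be technical. The title of the first Kdm5a+b library names Kdm5+b, while its source label names Kdm5a+b.

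Core histones H2A, H2B, H3 and H4 form the nucleosome, and H1 binds the linker DNA between nucleosomes. In cycling cells the clustered genes supply histones during DNA replication: NPAT, activated by cyclin E and CDK2, drives their transcription, with HINFP acting at H4 promoters and POU2F1 at the octamer element of H2B promoters. Their mRNAs end in a conserved stem-loop in place of a poly(A) tail, which is bound by SLBP and cut with the help of the U7 snRNP. Oocytes store histone mRNA that the embryo uses in its first cell cycles, and Hist1h2aa and Hist1h2ba encode the H2A and H2B variants TH2A and TH2B, known from testis and oocyte.

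The stem-loop is shown first, because it is the sequence that sets the members apart from other mRNAs and that decides how their 3′ ends are made. It was searched for in the 150 bases after the stop codon, as 16 bases with 6 paired positions (G-T pairs allowed) around a loop of 4. The search also required GG as the first 2 letters, CC as the last 2 and T as the first letter of the loop. Matches were found in 62 of the 67 members with a coding transcript in GENCODE M21, between 21 and 58 bases after the stop codon. In the other coding genes of the same 4 chromosomes the same search matched 11 of 4522 (0.243%). The 5 coding members without a match in that window were Hist1h2an, Hist1h2bp, Hist1h2bq, Hist1h2br and Hist2h2be. The window followed the stop codon of the transcript with the longest coding part. Hist1h2bp, Hist1h2bq and Hist1h2br have 2 or 3 transcripts, and stop codons of their other transcripts were not searched. A missing match in any of the 5 does not show that the gene lacks a stem-loop, since one with other letters is not matched. The hairpins of the most abundant member of each type and of Hist1h4a, with 5 flanking bases on each side, are given below as DNA from the RefSeq genome (GRCm38.p6, the assembly of mm10), 5′ to 3′ on the gene's strand, with the hairpin in capitals. Their positions are chr13:23764387-23764412 (Hist1h1a, plus strand), chr13:23934886-23934911 (Hist1h2aa, plus), chr13:21722501-21722526 (Hist1h2bm, plus), chr13:23544927-23544952 (Hist1h3f, plus), chr13:23581945-23581970 (Hist1h4d, plus) and chr13:23760795-23760820 (Hist1h4a, minus).
Hist1h1a: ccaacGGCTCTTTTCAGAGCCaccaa
Hist1h2aa: aaaaaGGCTCTTTTCAGAGCCacctt
Hist1h2bm: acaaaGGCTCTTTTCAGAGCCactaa
Hist1h3f: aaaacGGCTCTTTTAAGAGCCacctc
Hist1h4d: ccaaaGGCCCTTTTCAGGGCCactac
Hist1h4a: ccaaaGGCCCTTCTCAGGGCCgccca
The H4 genes had stems of their own. All 49 matched H1, H2A, H2B and H3 members opened with GGCTCT, whereas 11 of the 13 H4 members opened with GGCCCT and the other 2 with GGTCCT. The GG that opens each stem was set by the search, and only the letters after it could differ. The letters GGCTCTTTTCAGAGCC were the most frequent hairpin, in 38 of the 62.

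The stretches just upstream of the transcription start carried different elements by type. For 61 of the 69 members RefSeq gave 1 promoter, and 5 short motifs were searched on both strands in the 250 bases before the start. In 1 of the 61, that of Hist1h3i, a CCAAT match and a GGTCCG match shared 2 letters. The stretches of H2A and H2B genes that lie head to head can overlap, so 1 copy of a motif can count for both genes. The octamer ATTTGCAT was found in 6 of 16 H2B and 7 of 17 H2A promoters and in none of the H1, H3 and H4 promoters, against 1.60% of 32851 promoters of the same length. The H4 element GGTCCG, the core of the HINFP site, was found in 9 of 12 H4 promoters (6.72% of all), and the H1 element AAACACA in 5 of 6 H1 promoters (6.25% of all). CCAAT was present before all 6 H1, all 17 H2A and all 16 H2B genes, 8 of 10 H3 and 3 of 12 H4 genes (33.85% of all), and TATAAA before 4 of 6, 7 of 17, 8 of 16, 4 of 10 and 6 of 12 genes in the same order of types (12.37% of all). The last 80 bases before the RefSeq start (GRCm38.p6) of the 5 members with the highest wild-type levels outside H3 follow, with motif letters in capitals. They lie at chr13:23763588-23763667 (Hist1h1a, plus strand), chr13:23934357-23934436 (Hist1h2aa, plus), chr13:21721964-21722043 (Hist1h2bm, plus), chr13:23581488-23581567 (Hist1h4d, plus) and chr13:23698459-23698538 (Hist1h4c, minus).
Hist1h1a: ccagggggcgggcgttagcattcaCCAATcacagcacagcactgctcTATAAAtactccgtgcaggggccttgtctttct
Hist1h2aa: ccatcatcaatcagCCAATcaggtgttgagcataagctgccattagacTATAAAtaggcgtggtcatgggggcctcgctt
Hist1h2bm: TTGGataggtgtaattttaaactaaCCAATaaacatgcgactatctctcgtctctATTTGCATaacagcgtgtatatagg
Hist1h4d: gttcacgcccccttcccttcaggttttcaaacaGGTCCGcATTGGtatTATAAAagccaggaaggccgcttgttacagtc
Hist1h4c: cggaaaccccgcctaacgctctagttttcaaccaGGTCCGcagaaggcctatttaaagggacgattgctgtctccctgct
The capitals at the left edge of Hist1h2bm are the end of an ATTGG, the reverse complement of CCAAT, that starts before the stretch shown. Hist1h1a was the 1 H1 promoter in which AAACACA was not found. A match is a description of letters, and no binding was measured at these promoters here.

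Levels are FPKM, fragments scaled to transcript length and to the mapped fragments of the library, so each value is relative to all other RNA of its library, and fewer embryos or less RNA per embryo cannot be told apart from these bulk data. Depth in reads is unknown. Whether poly(A) RNA was selected is also unknown, which bears on mRNAs that end in a stem-loop. The levels and rankings below may therefore not describe the full pool of these mRNAs. Of the 69 members, 42 reached 1 FPKM in at least 2 of the 9 libraries and entered the test. A total of 18 members did not reach 1 FPKM in any library, and 11 reached it in all 9. Because members are near copies, reads could be shared: the share of a member's 50-base words found in no other gene's GENCODE M21 transcripts had a median of 54.5% in the tested members and 28.5% in the other 27, and lay under 20% for 20 members, 8 of them tested. The 6 members listed at 0 in every library, Hist1h2ad, Hist1h2aj, Hist1h2ap, Hist1h3h, Hist1h4k and Hist1h4m, had between 6.1% and 32.9% unique words. GENCODE M21 transcripts can differ in length from the deposited loci, so these shares need not hold for the stretch that was measured. In addition, 7 to 15 tested members per library had an FPKM above the upper bound that the same row gives, and in the 21 tested members spanning under 500 bases the median ratio of the FPKM to the middle of its bounds was 1.36, against 1.00 for the 9 spanning 1000 bases or more. Differences in level between short and long members are therefore uncertain. The ratio also varied between libraries within a gene, from 1.18 to 1.84 for Hist1h2bl and from 1.46 to 1.91 for Hist1h2bm. Differences between libraries are thus affected too.

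Wild-type replicate 2 stood apart in these genes. It listed 41 members at 0, against 21 and 28 in replicates 1 and 3, 37 and 33 after alpha-amanitin, 20 and 21 in mismatch control embryos and 20 and 27 after Kdm5a+b injection. Its summed FPKM over all members was the lowest of the 9, at 338, while the others of its group held 661 and 590. Among the 42 tested members it was the lowest wild-type library for 29 and the highest for 1. Over all 13137 tested genes it listed 4.41% at 0, against 2.68% and 3.68%. Results against wild type are therefore also given without it. The 11 markers chosen for the late 2-cell embryo, among them Zscan4c, Zscan4d and Zfp352, summed to between 319 and 432 FPKM in wild type, to 17.1 and 18.9 after alpha-amanitin, and to between 401 and 496 after either injection. Of 12 cumulus cell markers 9 stayed under 1 FPKM in all libraries, with sums from 2.68 to 4.23 in wild type and of 0.719 and 0.923 after alpha-amanitin. Oviduct markers summed to between 57.3 and 112 FPKM in wild type, 10.2 and 11.2 after alpha-amanitin and between 65.6 and 85.5 after either injection; 2 of the 4 tested were called lower after alpha-amanitin, Epcam and Cdh1, which embryos also express. The part of these markers in the results was not tested. Sums of 8 sperm markers lay between 0 and 5.96, and those of 8 blood markers between 0.364 and 11.1.

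In H1, H2A and H4 a few genes made up most of the summed FPKM, while H2B and H3 were spread more evenly. The 3 leading genes held at least 92.6% of a library's sum for H1, 83.5% for H2A and 90.8% for H4. Those of H2B held from 44.7% to 70.1%, and those of H3 from 56.5% to 82%. Hist1h2aa had the highest wild-type mean and was the most abundant member in 6 of 9 libraries; Hist1h1a was in 2 and Hist1h2bm in 1. The Hist1h2aa FPKM was 163, 109 and 93.4 in wild type, 91.6 and 245 after alpha-amanitin, 57.3 and 128 in mismatch control embryos, and 141 and 101 after Kdm5a+b injection. It held between 66.2% and 96.0% of the summed H2A FPKM of a library, and its 4 groups overlapped. Hist1h1a, an H1 subtype also known as H1.1, held between 81.4% and 100% of the summed H1 FPKM. The next H1 genes were far lower in wild type: Hist1h1b at 9.45, 0 and 5.14, Hist1h1e at 5.65, 0 and 0.154, and Hist1h1d at 0.555, 0 and 4.82.

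Among H2B genes the RNA was spread more evenly. Hist1h2bm led in wild type at 69.9 ± 28.2 FPKM (SD, n = 3), followed by Hist1h2bj at 29.0 ± 9.62 and Hist1h2bk at 19.0 ± 15.1 (SD, n = 3 each). Hist1h2bj and Hist1h2bk were within each other's spread. Hist1h2bj was 32.3, 18.1 and 36.4 in wild type, 19.5 and 48.0 after alpha-amanitin, 45.8 and 25.2 in mismatch control embryos, and 30.6 and 14.6 after Kdm5a+b injection. Hist1h2bk was 30.3, 1.82 and 24.8 in wild type and between 15.9 and 39.3 in the 6 other libraries.

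Hist1h4d and Hist1h4c led the H4 genes. Hist1h4d was 66.2, 37.4 and 80.6 FPKM in wild type, 75.2 and 100.2 after alpha-amanitin, 51.6 and 36.4 in mismatch control embryos, and 78.7 and 41.7 after Kdm5a+b injection. Hist1h4c was 59.1, 6.31 and 34.1 in wild type, 19.9 and 35.9 after alpha-amanitin, 52.6 and 44.5 in mismatch control embryos, and 83.3 and 49.6 after Kdm5a+b injection. The groups overlapped for both genes, and wild-type replicate 2 was the lowest wild-type library for both. With Hist2h4, which was listed at 0 in wild-type replicate 1 and stood at 8.02 and 6.06 in the others, they held between 90.8% and 98.6% of the summed H4 FPKM.

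H3 was the type with the lowest summed FPKM in 9 of 9 libraries. Its 12 genes summed to between 7.41 and 40.7 FPKM, while no other type fell below 52.4 in any library. Hist1h3f led at 20.3, 2.79 and 6.83 in wild type, ahead of Hist1h3g at 8.51, 3.28 and 6.01 and Hist2h3b at 4.03, 0 and 1.42, with overlapping values. None of the 50-base words of Hist2h3b were unique to it, so its level is uncertain. The highest type was H2A in 4 libraries, H2B in 4 and H4 in 1. Across types, 4 members were at 10 FPKM or more in all 9 libraries: Hist1h1a, Hist1h2aa, Hist1h2bj and Hist1h4d.

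**Figure D1:**
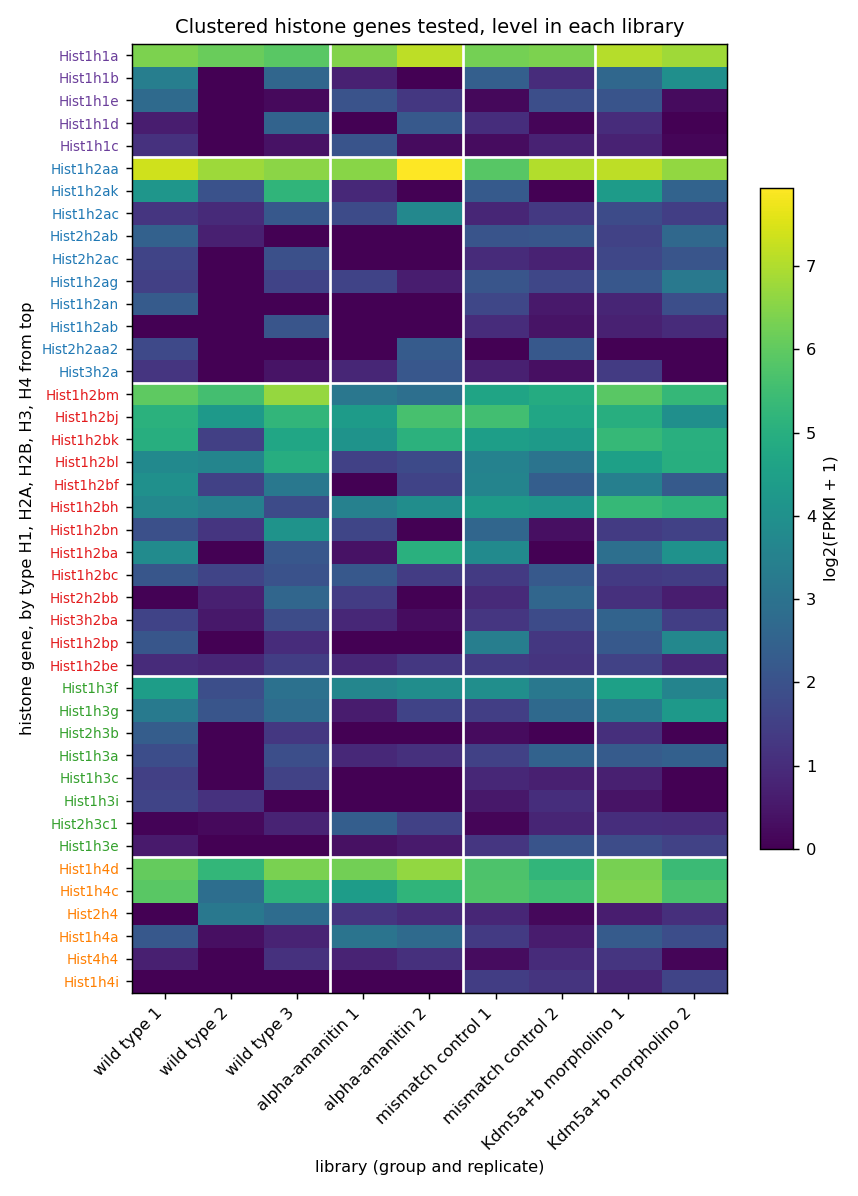
Level of the 42 tested clustered histone genes (rows, grouped by type from H1 at the top to H4 at the bottom and ordered by wild-type mean) in the 9 libraries (columns), as log2(FPKM + 1) on the colour scale. Hist1h1a, Hist1h2aa and Hist1h4d are bright in all 9 libraries, while Hist1h2bm dims in both alpha-amanitin libraries and wild-type replicate 2 holds 16 tested genes listed at 0.

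**Figure D2:**
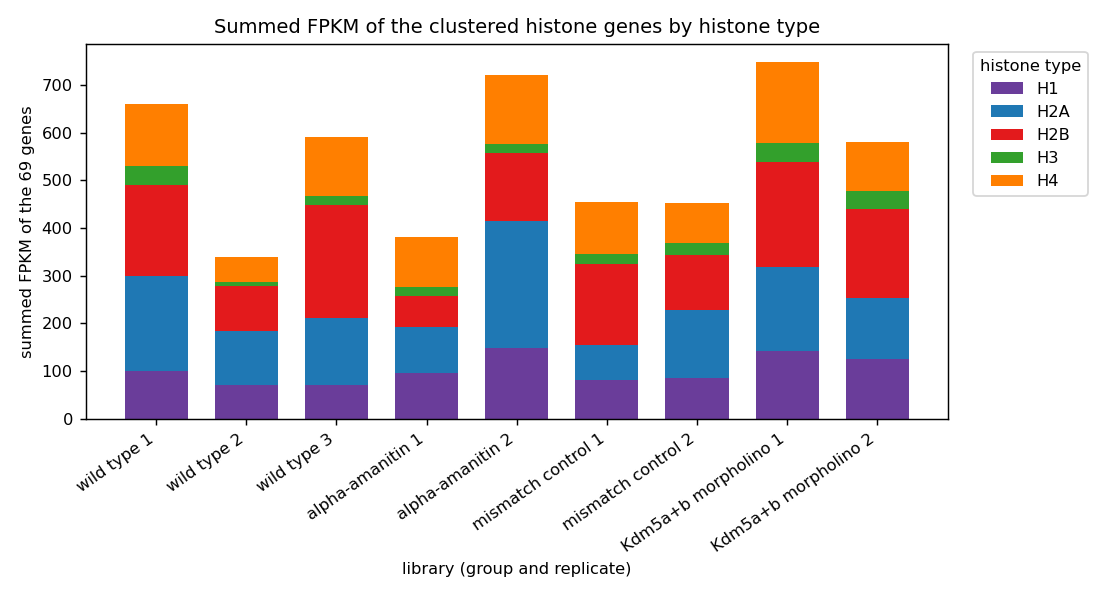
Summed FPKM of the 69 genes in each library (bars), stacked by histone type. The total runs from 338 in wild-type replicate 2 to 749 in the first Kdm5a+b library, and H3 is the thinnest layer in 9 of 9 libraries.

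Many H2A and H2B genes lie head to head, transcribed away from a shared promoter region, and in 4 of 12 such pairs the same gene was the higher in all 9 libraries. There were 12 pairs with coding starts 278 to 334 bases apart (median 299). In 5 of them 1 gene averaged 10 FPKM or more in wild type, and in none did both. Hist1h2bj, Hist1h2bk and Hist1h2bl were each above their H2A partner, Hist1h2ag, Hist1h2ah and Hist1h2ai, in 9 of 9 libraries. Hist1h2ag was at most 8.30 and Hist1h2bj at least 14.6. Hist1h2ah and Hist1h2ai did not exceed 1.81 and 1.37.

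The pair of germline variants went the other way, with the H2A gene above in 9 of 9 libraries. Hist1h2aa was at least 57.3 FPKM, and Hist1h2ba at most 31.8, with values of 13.2, 0 and 3.42 in wild type, 0.308 and 31.8 after alpha-amanitin, 13.1 and 0 in mismatch control embryos, and 6.5 and 15.4 after Kdm5a+b injection. Hist1h2ba thus varied between libraries of 1 group by more than its groups differed. In the pair of Hist1h2ak and Hist1h2bn neither gene led throughout, with Hist1h2ak above in 5 libraries and Hist1h2bn in 3, and Hist1h2bc was above Hist1h2ac in 5 and below it in 4. In 3 pairs both genes were listed at 0 in all wild-type libraries. The pairs were defined by position, and the unique share of words was low in several partners, so the split of reads within the H2A and H2B families is uncertain.

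**Figure D3:**
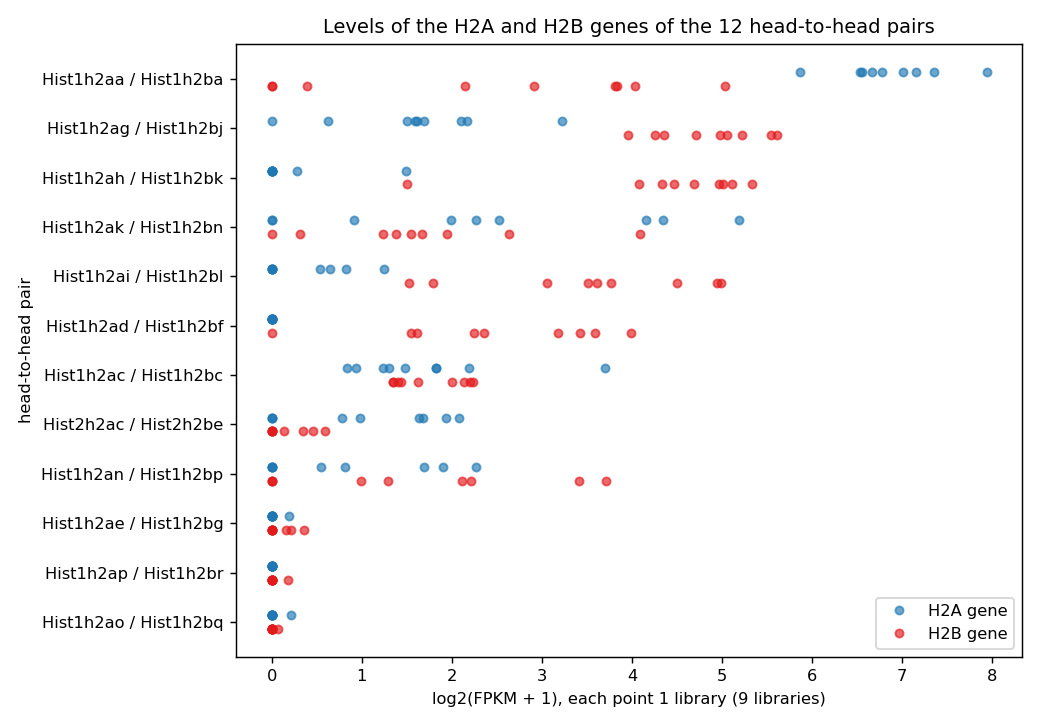
Levels of the H2A gene (blue) and the H2B gene (red) in the 12 head-to-head pairs, as log2(FPKM + 1), with 1 point per library. In the top row Hist1h2aa lies to the right of Hist1h2ba in 9 of 9 libraries, and in the rows of Hist1h2bj, Hist1h2bk and Hist1h2bl the H2B gene lies to the right in 9 of 9.

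The comparison of alpha-amanitin with wild type asks which RNAs differ when transcription by RNA polymerase II is blocked. After alpha-amanitin 3 tested members were lower and 2 were higher by limma (adjusted p under 0.05 over the 13137 genes tested), and 37 were not called. The 3 lower genes were the H2B genes Hist1h2bm and Hist1h2bl and the H2A gene Hist1h2ak, and the 2 higher ones were the H4 gene Hist1h4a and the H3 gene Hist2h3c1. Of all tested genes 25.1% were called lower and 4.31% higher. The share of members called lower (7.14%) was below that background, and the share called higher (4.76%) was near it. All 3 genes called lower were among the 9 members that averaged at least 10 FPKM across the wild-type libraries. Less abundant members had less room to fall in log2(FPKM + 1). Whether the share of members differs from that of other genes at similar levels was not tested. The median log2 change of the members was 0.00, against −0.56 over all tested genes. Leaving out 1 library moved it to −0.37 (wild-type replicate 2), −0.21 (alpha-amanitin replicate 1), −0.39 (alpha-amanitin replicate 2) or 0.13 (wild-type replicate 3), while that of all genes stayed between −0.61 and −0.54. The share called lower rose to 21.4% without wild-type replicate 2, near the 23.1% of all tested genes in the same fit. Among the members 21 had a change above 0, 20 below 0 and 1 of 0, whereas 33.9% of all tested genes had a change above 0.

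Hist1h2bm, which encodes a replication-dependent H2B, had FPKM of 61.4, 46.9 and 101 in wild type and 7.82 and 6.53 after alpha-amanitin. Both treated libraries were below every wild-type library, and the log2 change in FPKM + 1 was −3.05 ± 0.36 (SE; limma adjusted p = 0.000128). Hist1h2bl was 12.6, 11.3 and 29.9 in wild type and 1.88 and 2.45 after treatment, again without overlap (log2 change −2.46 ± 0.45, limma adjusted p = 0.00229). These 2 calls held under 17 of 17 alternative settings. With the midpoint of the bounds in place of FPKM the log2 changes were smaller, −2.73 for Hist1h2bm and −1.99 for Hist1h2bl. None of the settings addressed reads shared between near copies. The unique share of 50-base words was 56.2% for Hist1h2bm and 17.2% for Hist1h2bl. For Hist1h2bm the words came from a transcript of 524 bases, while its deposited locus spans 381. For Hist1h2bl both were 381. Hist1h2ak was 16.8, 2.97 and 35.6 in wild type, while the treated libraries stood at 0.885 and 0 (log2 change −3.32 ± 0.97, limma adjusted p = 0.0260). Its call held under 10 of 17 settings, and the adjusted p reached 0.149 without the filter on low values and 0.144 without alpha-amanitin replicate 2.

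Hist1h4a was 3.54, 0.249 and 0.731 in wild type and 7.32 and 5.75 after alpha-amanitin (log2 change 1.81 ± 0.59, limma adjusted p = 0.0426). Hist2h3c1 was 0.0470, 0.161 and 0.727 in wild type and 4.17 and 1.92 after treatment (log2 change 1.60 ± 0.48, limma adjusted p = 0.0278). The treated libraries were above every wild-type library for both genes, at low levels. Hist2h3c1 carried the status LOWDATA in all 9 libraries and none of its 50-base words were unique to it, so its value cannot be told apart from those of its near copies. The call of Hist1h4a held under 5 of 17 settings and that of Hist2h3c1 under 12. Without wild-type replicate 2 neither was called (adjusted p 0.109 and 0.0595), and the count of higher members fell from 2 to 0.

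Most members that were abundant in wild type were not called. Hist1h1a was 81.3, 69.59 and 59.2 FPKM in wild type and 88.1 and 143 after alpha-amanitin, which did not overlap, but the call missed the threshold (log2 change 0.68 ± 0.26, limma adjusted p = 0.0745). It was called after rescaling to TPM (adjusted p 0.0319) and without alpha-amanitin replicate 1 (0.0326). Hist1h2aa differed by 0.34 ± 0.45 (limma adjusted p = 0.602), Hist1h4d by 0.56 ± 0.38 (0.296), Hist1h4c by 0.16 ± 0.71 (0.886) and Hist1h2bj by 0.14 ± 0.49 (0.853) on the log2 scale. These values missed the threshold, which does not show that the levels were equal. In all, 3 of the 42 tested members (7.1%) lay above every wild-type library in both treated libraries, against 13.4% of all tested genes, and 5 (11.9%) lay below, against 41.1%. The 3 were Hist1h1a, Hist1h4a and Hist2h3c1, and the 5 were Hist1h2bm, Hist1h2bl, Hist1h2ak, Hist1h3g and Hist2h2ab.

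**Figure D4:**
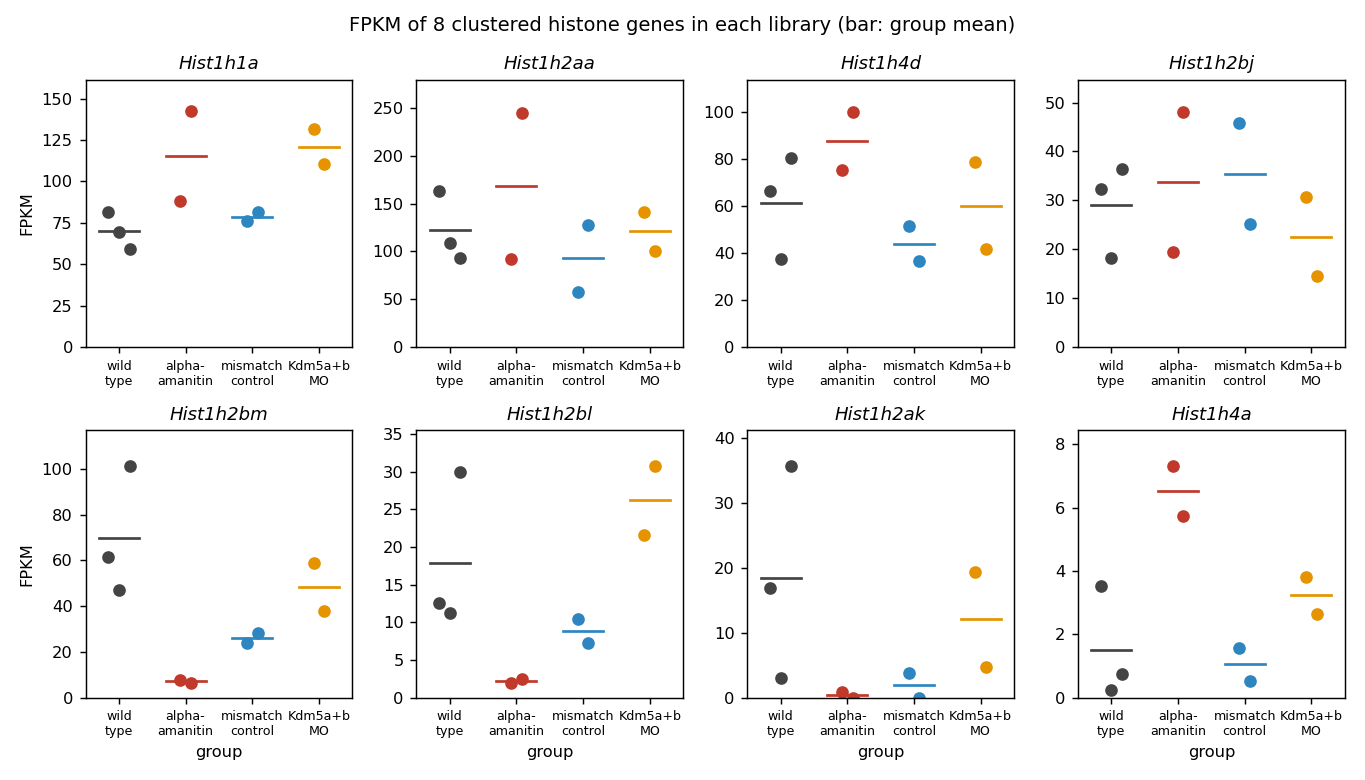
FPKM of 8 clustered histone genes in each library (points) with the group mean (bar), for 3 wild-type, 2 alpha-amanitin, 2 mismatch control and 2 Kdm5a+b morpholino (MO) libraries. Hist1h2bm falls from between 46.9 and 101 in wild type to 7.82 and 6.53 after alpha-amanitin, while Hist1h2aa and Hist1h4d overlap between the groups.

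By type, the median log2 change was 0.65 over 5 H1, −0.31 over 10 H2A, −0.41 over 13 H2B, −0.58 over 8 H3 and 0.23 over 6 H4 genes. Single genes weighed heavily in the summed FPKM of a type. Summed H2A was 200, 114 and 141 FPKM in wild type and 97.8 and 267 after treatment, a log2 ratio of means of 0.27 that became −1.05 without Hist1h2aa. Of the other H2A genes Hist1h2ak, called lower, had the highest wild-type mean, 18.5 FPKM against 0.442 after treatment. Summed H1 gave 0.61, and −0.66 without Hist1h1a. Of the other H1 genes Hist1h1b had the highest wild-type mean, 4.86 FPKM against 0.332 after treatment. Summed H2B was 190, 95.2 and 237 in wild type and 64.8 and 142 after treatment, a ratio of −0.75 that shrank to −0.12 without Hist1h2bm. Summed H3 was 40.2, 7.41 and 19.9 against 17.4 and 20.1, and summed H4 131, 52.4 and 123 against 105 and 145. The treated and wild-type libraries overlapped in the sums of H2A, H2B, H3 and H4, and for H1 the sums of 95.1 and 148 overlapped with 99.8, 69.59 and 69.61.

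The largest decreases lay close together. Hist1h2bl, Hist1h2bm and Hist1h2ak fall within 38.1 kb of chromosome 13 (chr13:21715763-21753827, mm10), a stretch that holds 8 members, 3 of them tested. With members split into blocks wherever the gap exceeded 100 kb, a rule chosen after the values were seen, this stretch is part of a block of 19 members over 121.8 kb. All 8 tested members of that block had a change below 0 (median −1.61, from −3.32 to −0.76). Among them Hist1h1b, Hist1h3i, Hist1h2an, Hist1h2bp and Hist1h2bn were not called. In Hist1h2bl, Hist1h2bn, Hist1h2an and Hist1h3i under 20% of the 50-base words were unique. Hist1h2an and Hist1h2bp averaged 1.28 and 1.44 FPKM in wild type and were listed at 0 in both treated libraries. In the block of 29 members over 233.3 kb that holds Hist1h1a, Hist1h4c and Hist1h4d, 6 of 18 tested members were below 0 and 12 above (median 0.22). In the short block of Hist1h2bk and Hist1h2bj 3 of 4 were above 0 and Hist1h4i was listed at 0 in all 5 libraries compared. On chromosome 3, 5 of 7 were below 0 (median −0.90). In the mismatch controls against wild type, 6 of the 8 tested members of the 121.8 kb block were below 0 and 2 above (median −0.56). That comparison uses the same wild-type libraries as the one with alpha-amanitin, so the 2 are not independent. The blocks were not tested against one another.

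**Figure D5:**
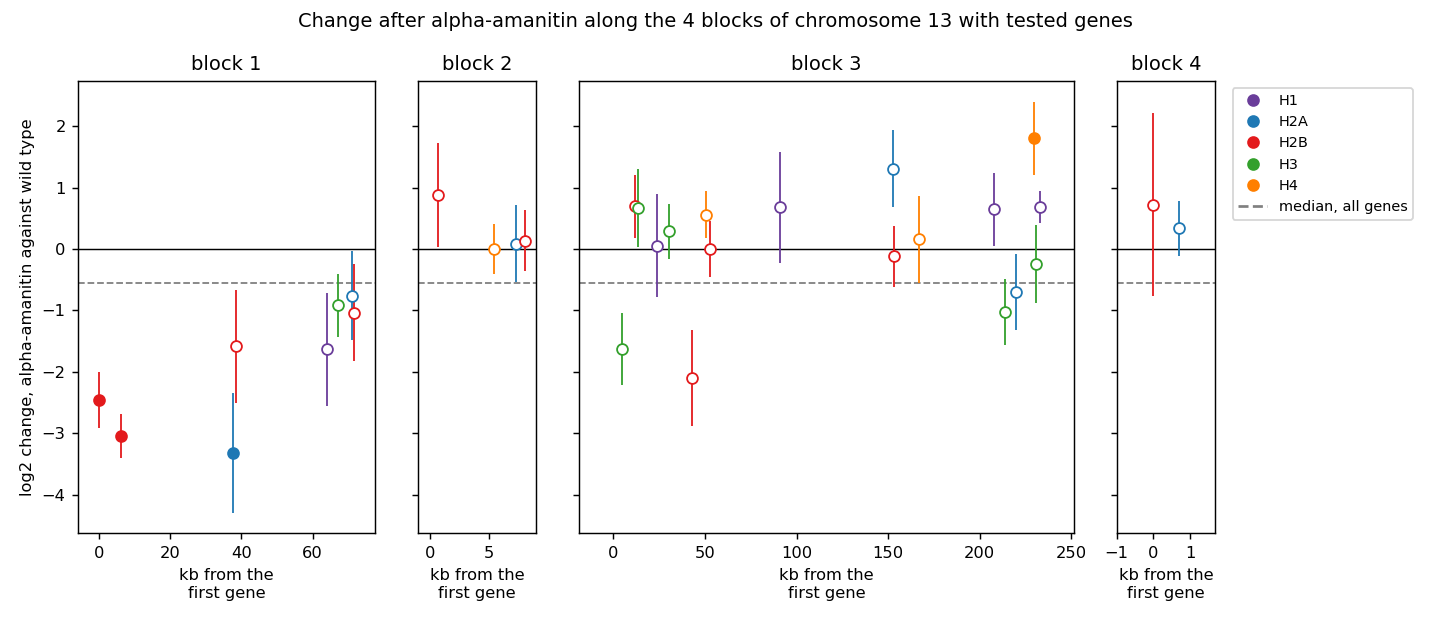
Log2 change in FPKM + 1 after alpha-amanitin against wild type (vertical axis, bars are SE) of the tested members along the 4 blocks of chromosome 13 that hold tested members, by distance in kb from the first member of the block; filled points passed the limma test, colours give the histone type, and the dashed line is the median of all tested genes (−0.56). All 8 points of block 1 lie below 0, while 12 of the 18 in block 3 lie above.

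Without wild-type replicate 2 the count of lower members rose from 3 to 9, a share near that of all tested genes, as given above. The 6 added were Hist1h1b, Hist1h2bf, Hist1h3c, Hist1h3g, Hist2h2ac and Hist2h3b. Hist1h3g was 8.51, 3.28 and 6.01 FPKM in wild type and 0.508 and 2.00 after alpha-amanitin; with all libraries its adjusted p was 0.0591. Hist1h1b was 9.45, 0 and 5.14 in wild type, and 0.665 and 0 after treatment, so its 0 in wild-type replicate 2 overlapped with the treated libraries. Hist1h2ac, an H2A gene, was 1.35, 0.910 and 3.54 in wild type and 2.54 and 12 after alpha-amanitin, and was not called (log2 change 1.31 ± 0.63, limma adjusted p = 0.145). After quantile normalization the calls over all genes were 1716 higher and 1806 lower in place of 566 and 3299, and the members then had 4 higher and 2 lower with a median of 0.52 against 0.17 for all genes.

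The mismatch controls were compared with wild type to see the effect of injecting a morpholino. No member and no gene of the 13137 passed the limma test in either direction (0% higher and 0% lower). At an unadjusted p under 0.05 there were 5 members, against 616 genes or 4.69% of all. The members' median log2 change was 0.01, with 21 above and 21 below 0. Without wild-type replicate 2 that median became −0.32, and without wild-type replicate 1 it became 0.29, against 0.01 and −0.02 for all tested genes. In 4 tested members both mismatch libraries were above every wild-type library (9.5%, against 9.26% of all genes), and in 2 both were below (4.8%, against 8.85%).

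Those 2 were Hist1h2bm and Hist1h2bl, which lay below every wild-type library after alpha-amanitin too. Both comparisons use the same 3 wild-type libraries, so the second is not an independent repeat of the first. Hist1h2bm was 24.0 and 28.4 FPKM in the mismatch controls, below all of 61.4, 46.9 and 101, with a log2 change of −1.31 ± 0.36 (limma adjusted p = 0.857). Hist1h2bl was 10.4 and 7.29 against 12.6, 11.3 and 29.9 (log2 change −0.83 ± 0.45, limma adjusted p = 0.999). Hist1h2ak, also called lower after alpha-amanitin, was 3.80 and 0 against 16.8, 2.97 and 35.6, which overlapped. Its log2 change was −2.65 ± 0.97 (limma adjusted p = 0.999). Of the genes above wild type, Hist1h3e was 1.40 and 3.20 against 0.476, 0 and 0, and Hist1h4i, an H4 gene named here after its values were seen, was 1.75 and 1.31 against 0 in all 3. Hist1h2bp was 9.60 and 1.45 against 3.33, 0 and 0.993, which overlapped. The other 2 members above wild type in both mismatch libraries were Hist1h2ag and Hist1h2bh.

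The comparison of the Kdm5a+b morpholinos with the mismatch controls asks what follows depletion of the 2 demethylases. Morpholinos act on translation or splicing, and mRNA levels do not check the depletion: Kdm5a was 19.5 and 15.3 FPKM against 12.8 and 9.44, and Kdm5b 38.1 and 27.6 against 55.3 and 39.6. No member and no other gene passed the limma test (0% of 13137 higher and 0% lower). An unadjusted p under 0.05 was reached by 2 members, Hist1h2bl and Hist1h3g, and by 414 genes (3.15%). The members' median log2 change was 0.38, against 0.00 over all tested genes, and 30 of the 42 (71.4%) were above 0, against 50.2%. The members' median was 0.23 without mismatch control replicate 2, 0.25 without Kdm5a+b replicate 1 and 0.59 without Kdm5a+b replicate 2.

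In 13 tested members (31%) both Kdm5a+b libraries were above both mismatch libraries, against 16.5% of all tested genes, and in 1 (2.4%), Hist1h3i, both were below, against 16.8%. The 13 were 2 H1, 4 H2A, 4 H2B, 2 H3 and 1 H4 gene. Hist1h2bl was 21.6 and 30.8 FPKM against 10.4 and 7.29 (log2 change 1.46 ± 0.50), and Hist1h3g 8.54 and 18.5 against 1.77 and 5.51 (1.68 ± 0.64). Hist1h2ak was 19.4 and 4.76 against 3.80 and 0 (2.31 ± 1.06). Hist1h1a was 132 and 110 against 76.1 and 81.4 (0.61 ± 0.29), and Hist1h2bh, named after its values were seen, 39.4 and 34.4 against 19.0 and 16.7 (1.01 ± 0.56). The limma adjusted p of each of these was 1. The 2 morpholino groups share their injection, but with 2 libraries each no call was reached.

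Summed over all members the Kdm5a+b libraries held 749 and 579 FPKM and the mismatch controls 455 and 452. The sums did not overlap for H1 (142 and 125 against 81.9 and 85.9), H2B (221 and 187 against 169 and 115) and H3 (40.7 and 37.7 against 21 and 23.9). They overlapped for H2A (176 and 128 against 73.5 and 142) and H4 (169 and 102 against 110 and 84.7). The log2 ratios of means ran from 0.48 for H4 to 0.80 for H3. With 1 library left out, that of H4 ran from 0.07 (without Kdm5a+b replicate 1) to 0.80 (without Kdm5a+b replicate 2), that of H2A from 0.10 to 1.05 (without mismatch control replicates 1 and 2) and that of H2B from 0.27 to 0.82 (without mismatch control replicates 2 and 1). The wild-type sums of 661, 338 and 590 overlapped with those of both morpholino groups, and 749 lay above all 3. The same mismatch libraries enter the comparison with wild type, where both lay below wild type for Hist1h2bm and Hist1h2bl, and in the Kdm5a+b libraries Hist1h2bm stood at 58.8 and 37.8.

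Genes that make and use these mRNAs were described from lists. Of 17 genes for 3′ end processing, 4 were lower after alpha-amanitin and none higher (median log2 change −0.69). That share, 23.5%, is near the 25.1% of all tested genes called lower. Slbp, which binds the hairpin shown above, was 88.9, 62.8 and 63.4 FPKM in wild type and 31.2 in both treated libraries (log2 change −1.16 ± 0.28, limma adjusted p = 0.00940). Ncbp1, the large subunit of the cap-binding complex, was 32.5, 34.8 and 25.7 against 0.0203 and 0.00265, and 2 genes for Sm proteins were also lower, Snrpb (1.71, 7.73 and 5.58, listed at 0 in both treated libraries) and Snrpe (log2 change −1.65). The components specific to the U7 snRNP were low throughout and not called: Lsm10 at 4.75, 10.3 and 2.98 against 2.49 and 3.46, and Lsm11 at 1.60, 6.37 and 3.44 against 1.93 and 1.30. Casp8ap2, which encodes the processing factor FLASH, was 42.2, 85.9 and 48.4 against 54.1 and 46.9 (log2 change −0.15 ± 0.31, limma adjusted p = 0.748), and Zfp473, a zinc finger protein of the U7 complex, did not pass either (adjusted p 0.881).

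Of 12 genes for histone gene transcription 7 were lower (58.3%, against 25.1% of all tested genes; median −2.22). Npat was 37.6, 42.1 and 24.1 FPKM in wild type and 5.99 and 6.01 after treatment (log2 change −2.31 ± 0.31, limma adjusted p = 0.000325). Hinfp was 10.2, 3.80 and 8.64 against 0.860 and 0.308 (−2.36 ± 0.50, limma adjusted p = 0.00480). The others were Ccne1, which encodes cyclin E1 (−4.17), Cdk2 (−3.78), Yy1 (−3.53), and the CCAAT-binding subunits Nfyb (−3.01) and Nfyc (−2.13). Treated and wild-type libraries did not overlap for Npat or Hinfp.

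Of 13 tested genes for histone mRNA decay 3 were lower (log2 changes of −2.59 for Exosc10, −2.42 for Zcchc11 and −1.59 for Lsm1), with a median of −0.78 for the list. That share, 23.1%, is also near the 25.1% of all tested genes. Of 5 for export and translation 3 were lower, Nxf1 (−3.41), Srsf7 (−2.52) and Srsf3 (−1.42), with a median of −1.42. These medians compare with −0.56 for all tested genes. No gene of these 4 lists was called in the mismatch control or Kdm5a+b comparisons, where list medians lay between −0.16 and 0.12.

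Histone genes outside the clusters, which are polyadenylated and not tied to replication, gave a different count. After alpha-amanitin 6 of 12 tested were lower: H2afv (log2 change −3.78), H3f3a (−3.41), H3f3c (−3.12), H2afj (−2.82), H2afz (−2.65) and Cenpa (−1.82). The median of that list was −1.07, and the share called lower was 50%, against 25.1% of all tested genes. H3f3b, the other gene for H3.3, was 61.7, 79.2 and 80.6 FPKM in wild type and 77.7 and 63.3 after treatment, and H1foo, the oocyte linker histone, was 10.9, 32.1 and 10.2 against 5.77 and 30.1. Neither passed the test. In the clusters 3 of 42 tested members (7.1%) were lower. Without wild-type replicate 2 it was 9 of 42 (21.4%), against 23.1% of all tested genes, so the share in the clusters depended on that library. The list outside the clusters is given here only with all libraries. The shares inside and outside the clusters were not matched for level and were not tested against each other. Whether poly(A) RNA was selected, which is unknown here, also bears on that contrast. The 9 oocyte markers summed to between 306 and 375 FPKM in wild type and to 635 and 734 after alpha-amanitin. The part of these markers in the results was not tested.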

How the data were processed

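RNA was measured in 9 libraries of late 2-cell embryos (3 wild type, 2 alpha-amanitin, 2 mismatch control, 2 Kdm5a+b morpholino). Total RNA came from whole-cell lysates by the RNeasy Micro procedure, and TruSeq libraries were made, per the labels' protocols. Whether poly(A) RNA was selected, which bears on mRNAs that end in a stem-loop, is not given in the sources used here, nor are the RNA-seq aligner, the strand setting and the annotation release. The authors deposited FPKM per gene with a lower and an upper bound and a status, per the file headers, in the layout of Cufflinks, on mm10 per the submitters' processing notes. Read counts were not used here, so no count test was run and depth is unknown.

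Gene symbols and positions were taken as deposited. Hairpins and coding ends used GENCODE M21 and the RefSeq genome, and promoters used the RefSeq promoter table (both GRCm38.p6). The status was LOWDATA in all 9 libraries for 2 members, Hist3h2a and Hist2h3c1, and OK otherwise. Values of 0 are described as listed at 0; 5 of the 621 member values lay above 0 but under 0.001.

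Groups were compared by limma 3.58.1 (R 4.3.3), run on log2(FPKM + 1) of the 13137 genes with 1 FPKM or more in at least 2 libraries, with group as the only term over 9 libraries (5 residual degrees of freedom), eBayes with trend, two-sided, Benjamini-Hochberg over all genes tested. Log2 changes are on that scale and understate the change of low genes. The fit was tested on simulated data. Tables and figures used Python 3.11.15, pandas 2.3.3 and matplotlib 3.10.9.

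Members and lists were chosen with earlier results of these data known. Genes named are every member called, the 3 highest and the largest change of each type, 7 pathway genes (Slbp, Casp8ap2, Lsm10, Lsm11, Zfp473, Npat, Hinfp) and list genes called; other names are marked or follow from pairs and blocks. Alternatives were a pseudocount of 0.1, no filter, quantile normalization, TPM, the replicate block, only the 2 groups compared, no trend, each library left out and, added after seeing the data, the midpoint of the bounds in place of FPKM. The ChIP-seq and bisulfite samples were not analysed here.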

Additional observations from a re-analysis of the deposited data

How the results depend on the processing

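No called log2 change reversed; Hist2h4, not called after alpha-amanitin with all libraries, ran from −1.90 to 0.13 across settings. After alpha-amanitin, members called higher numbered 1 with a pseudocount of 0.1 or the replicate block, 0 without the filter or with only the 2 groups compared, 4 after quantile normalization, and 0 to 2 with a library left out; members called lower numbered 5 with a pseudocount of 0.1 and 2 to 9 with a library left out (9 without wild-type replicate 2, 2 without wild-type replicate 3 or either alpha-amanitin library). Over all genes, quantile normalization gave 1716 higher and 1806 lower, the replicate block 371 higher, only the 2 groups compared 339 higher, and leaving out a library 2378 to 3155 lower and 298 to 502 higher (298 without alpha-amanitin replicate 2, 362 without alpha-amanitin replicate 1). Without the filter the mismatch control comparison had 11 genes higher and the Kdm5a+b comparison 17 higher and 10 lower; with a library left out the former had 0 to 1 higher and 0 to 3 lower, and the latter 0 to 3 higher and 0 to 1 lower. No member was called in those 2 comparisons under any of the 17 settings.

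Log2 ratios of summed FPKM after alpha-amanitin, with a library left out, ran from 0.25 to 0.89 for H1, −0.63 to 0.82 for H2A, −1.43 to −0.29 for H2B, −0.68 to 0.46 for H3, −0.02 to 0.51 for H4 and −0.48 to 0.45 for all types. Without the most abundant member of each type they were −0.66 for H1, −1.05 for H2A, −0.12 for H2B, −1.05 for H3 and −0.13 for H4; the H1 ratio was −0.91 for the mismatch controls against wild type and 1.27 for Kdm5a+b against the mismatch controls. Replicate numbers are shared by title only: differences of replicate 1 and 2 correlated between −0.04 and 0.041 across genes. The replicate block gave 3 lower and 1 higher member after alpha-amanitin; wild-type replicate 3 is then a block of its own.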
